A study of Mus musculus with 8 samples.

Results

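The genes described here are those of the mouse major histocompatibility complex (MHC), called H2 in the mouse, and of the machinery that loads peptides onto MHC proteins. They are the genes whose symbol starts with H2-, together with B2m, Tap1, Tap2, Tapbp, Tapbpl, Cd74, Ciita, Nlrc5 and Erap1, taken from probe sets that the platform annotation pairs with a single symbol, with the brightest probe set standing for each gene. This gave 38 genes of 19938 measured, 29 of them named H2- and 9 from the fixed names. By the labels, RNA came from whole brain of adult male mice 2 to 4 months old. There were 4 biological replicates labelled TNF-/- and 4 labelled TNF+/+, 1 Affymetrix Mouse Gene 1.0 ST array each. The labels give the strain C57BL/6 for the TNF+/+ group and no strain, allele or deleted part for the TNF-/- group. The study compared brains with and without tumour necrosis factor (TNF), an inflammatory cytokine. Values are the authors' log2 signals, and every difference is the mean of arrays labelled TNF-/- minus the mean of arrays labelled TNF+/+, on the log2 scale. Signal of the targeted gene ran against the labels: the 1 probe set of Tnf had a mean of 5.92 ± 0.22 (SD, n = 4) where the label is TNF-/-, against 4.53 ± 0.29 (SD, n = 4) where it is TNF+/+ (limma, adjusted p = 0.0278). Whether that probe set lies in the deleted part is not given, and each direction is that of arrays as labelled.

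MHC class I proteins pair a heavy chain with beta-2-microglobulin and show peptides from inside the cell to CD8 T cells, while class II proteins show peptides from endosomes to CD4 T cells. NLRC5 and CIITA are the transactivators of class I and class II genes; both work through a promoter module in which the factors RFX, CREB and NF-Y occupy the X and Y boxes, and interferon and TNF can raise class I. In the healthy brain class I is low in most cells, and class II is largely confined to macrophages at the borders and few microglia. No probe set pairs with H2-K1 or H2-D1 alone, so the classical class I heavy chains have no gene among the 38.

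Promoter sequence was searched for parts of the X and Y box module, the RFX site not among them. RefSeq windows of GRCm38.p6, from 250 bases before to 50 bases after a transcript start, matched 26 of the 38 genes by gene ID (28 windows, since 2 genes have a pair of starts). The Y box, searched as CTGATTGG on both strands, was found for 13 of the 26, among them 4 of 6 class II and 8 of 15 non-classical class I genes, and in 4.1% of all 32851 windows. Those 8 are all of the H2-M series, with the match on the strand opposite to the transcript. In the 4 class II genes it lies on the transcript's own strand. Its core ATTGG, which lies within it, was found for 23 of the 26 and in 37.4% of all windows. The palindrome TGACGTCA, the CREB-binding form of the X2 box, was found for H2-Aa alone and in 1.79% of all windows, and its core TGACG, which it contains, for 10 of the 26 and in 20.8%. Of the class II genes, 1 of 6 had that core, so most did not show both boxes in the forms searched. The interferon element, searched as GAAA followed after 2 free bases by GAAA, was found for B2m and Erap1 and in 3.44%. A match describes letters only. The stretches of 4 class II genes are shown for the Y box, which starts 51 bases before the start in H2-Aa, 62 in H2-Eb1, 103 in H2-Eb2 and 46 in H2-Oa, and that of B2m for an interferon element, an X2 core and a CCAAT core in 1 promoter. Capitals mark the Y box and the TGACGTCA palindrome in the class II genes and those 3 elements in B2m, and each stretch ends 31 bases before the start.
H2-Aa, chr17:34287854-34287953, minus strand: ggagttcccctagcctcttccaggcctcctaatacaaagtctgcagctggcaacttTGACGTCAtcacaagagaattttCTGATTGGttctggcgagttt
H2-Eb1, chr17:34305737-34305836, plus strand: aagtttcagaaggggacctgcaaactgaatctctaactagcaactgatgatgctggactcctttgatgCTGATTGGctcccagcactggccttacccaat
H2-Eb2, chr17:34325545-34325644, plus strand: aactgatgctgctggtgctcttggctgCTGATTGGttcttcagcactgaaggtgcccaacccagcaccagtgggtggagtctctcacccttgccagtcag
H2-Oa, chr17:34092249-34092348, plus strand: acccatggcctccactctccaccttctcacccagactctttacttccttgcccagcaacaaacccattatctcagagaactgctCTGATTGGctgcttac
B2m, chr2:122147537-122147656, plus strand: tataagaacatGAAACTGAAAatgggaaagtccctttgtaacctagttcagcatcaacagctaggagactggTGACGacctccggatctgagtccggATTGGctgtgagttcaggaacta

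No MHC or loading gene passed the test between the groups. Of the 38, limma called 0 at a Benjamini-Hochberg adjusted p under 0.05 over all probe sets (0.0816% of all probe sets were called), and SAM, the test that the study's design names, also called 0. At an unadjusted p under 0.05, 3 of the 38 were lower under the label TNF-/- and 0 were higher, against 4.28% and 7.37% of all genes. The 3 were Ciita, Nlrc5 and H2-Q5, and they were also the 3 whose groups did not overlap, all lower; over all genes 3.5% did not overlap and were lower, and 4.16% did not overlap and were higher. Of the 38 genes 27 differed downward and 11 upward, with a median of -0.04 beside -0.01 over all genes. The share that was lower moved with scaling, 71.1% as deposited (52.2% of all genes), 55.3% after quantile normalization (48.4%) and 76.3% after median centring of each array (58.6%). The quantile-normalized counts were 21 lower and 17 higher, with a median of -0.01 beside 0.00 over all genes, and the centred counts 29 and 9, with a median of -0.06 beside -0.02. The SE of single genes ran from 0.05 to 0.16, and the 95% intervals of all 38 differences lay between -0.58 and 0.43.

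**Figure D1:**
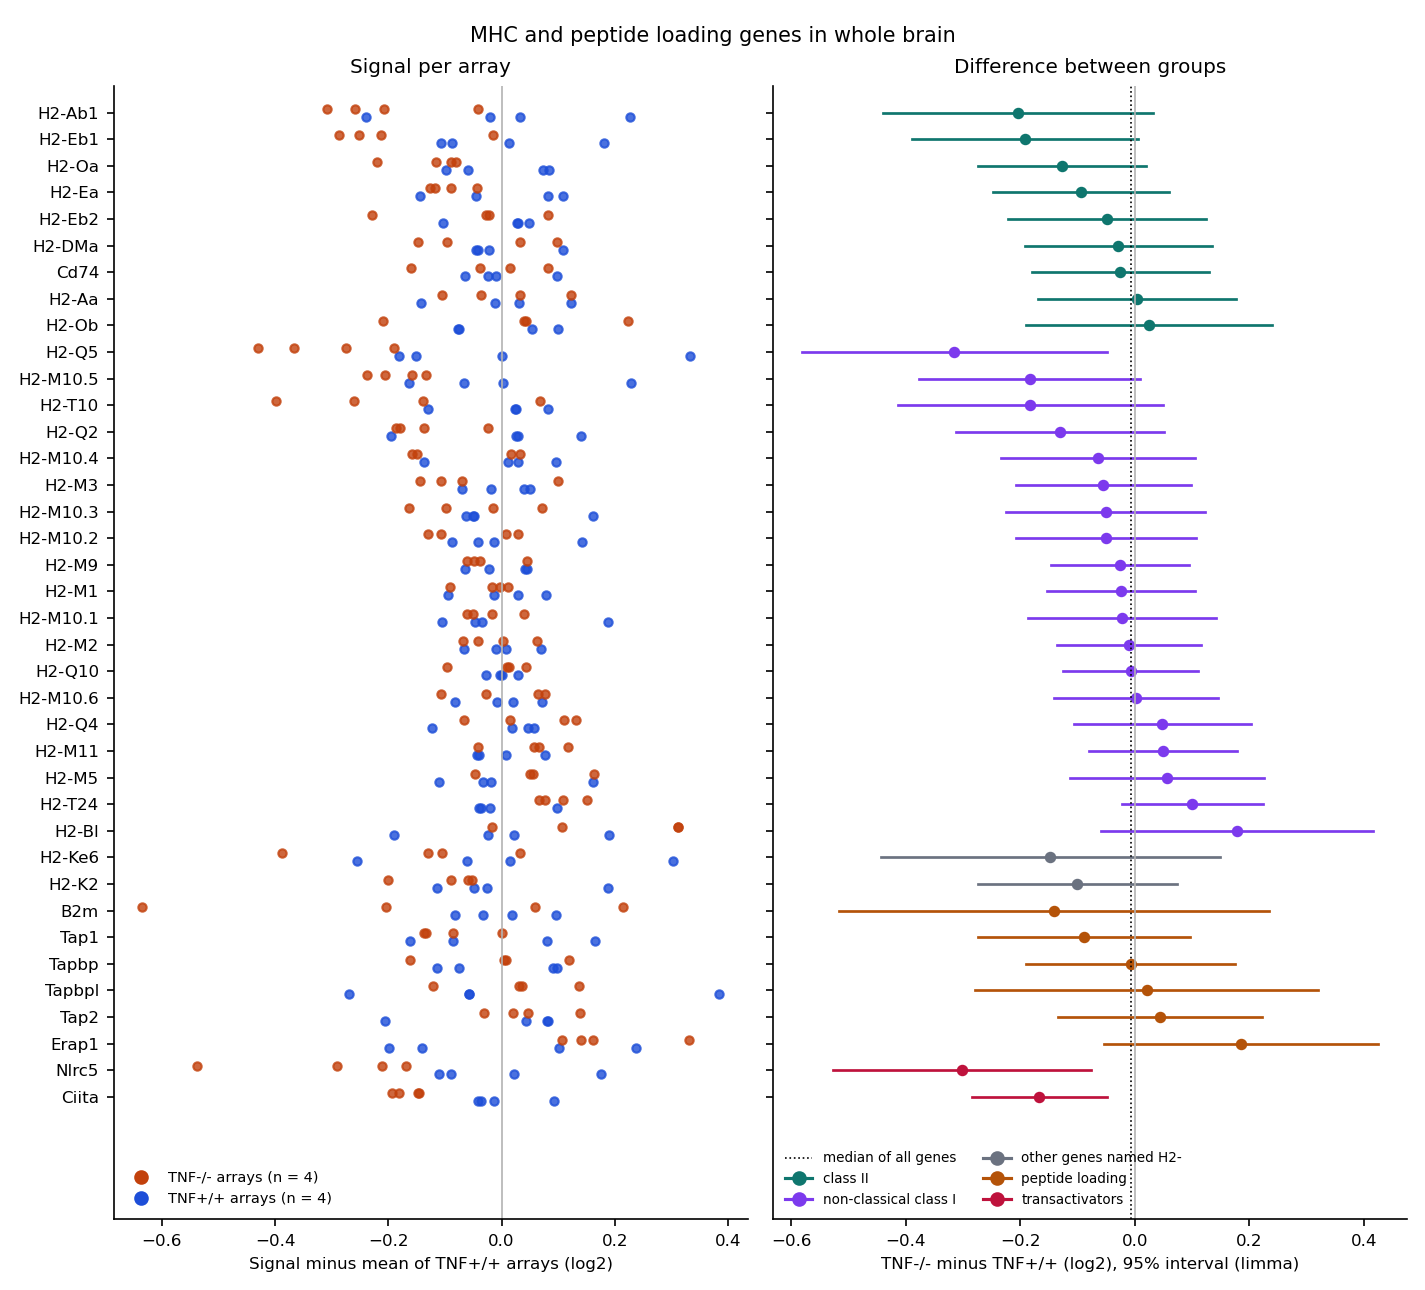
Left, signal of each of the 38 genes in each array as log2 signal minus the mean of the TNF+/+ arrays (orange, 4 arrays labelled TNF-/-; blue, 4 labelled TNF+/+). Right, the difference between the groups (log2) with its 95% interval from limma, coloured by role, and the median of all genes as a dotted line; the intervals of Ciita, Nlrc5 and H2-Q5 lie below 0 before adjustment, and none of the 38 passed after it.

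Both transactivators stood lower under the label TNF-/- without passing the adjusted test. Ciita, the class II transactivator, had signals of 3.58, 3.59, 3.62 and 3.63 in the arrays labelled TNF-/- and of 3.86, 3.73, 3.74 and 3.76 in those labelled TNF+/+. The groups did not overlap, and the difference was -0.17 ± 0.05 (SE) (limma, adjusted p = 0.347; exact two-sided permutation p = 0.0286 unadjusted, the smallest that 4 against 4 can give). These signals are dim, and the 25th percentile of signal over an array also differed in the same direction, with 3.95 to 3.97 for TNF-/- arrays against 4.00 to 4.04 for the rest; its part in the difference was not tested. After quantile normalization, which gives all arrays the same percentiles, the difference of Ciita was -0.13 (limma, adjusted p = 0.502).

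Nlrc5, the class I transactivator, had signals of 7.45, 7.43, 7.56 and 7.72 in the TNF+/+ arrays and 7.25, 7.33, 7.004 and 7.37 in the arrays labelled TNF-/-. TNF-/- array 3 was the lowest, and every array of that group lay below every array of the other. The difference was -0.30 ± 0.10 (SE), or 0.811-fold (limma, adjusted p = 0.358; exact two-sided permutation p = 0.0286 unadjusted). Nlrc5 was the only one of the 38 with more than 1 probe set, and the 19 varied in size and sign. The probe set used is much the brightest, with a mean of 7.39 beside 4.52 for the next and 3.47 for the dimmest, and 10 of the 19 were at or below the 25th percentile. Of the 19, 14 were lower and 5 higher under the label TNF-/-, 4 were lower at an unadjusted p under 0.05, none was higher at that level, and limma called 0 after adjustment. Over all probe sets 54.8% were lower, and 4.90% were lower at that unadjusted level. A dimmer probe set differed by the same amount, -0.30 ± 0.06 (SE), with 4.07, 4.01, 4.03 and 4.02 under TNF-/- and 4.28, 4.37, 4.46 and 4.22 under TNF+/+ (limma, adjusted p = 0.194). The highest of the 19 differed by 0.11 ± 0.06 (SE). The mean of all 19 differed by -0.09 (limma, adjusted p = 0.432), against -0.30 for the brightest alone, so the size of the Nlrc5 difference rests on the probe set chosen.

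**Figure D2:**
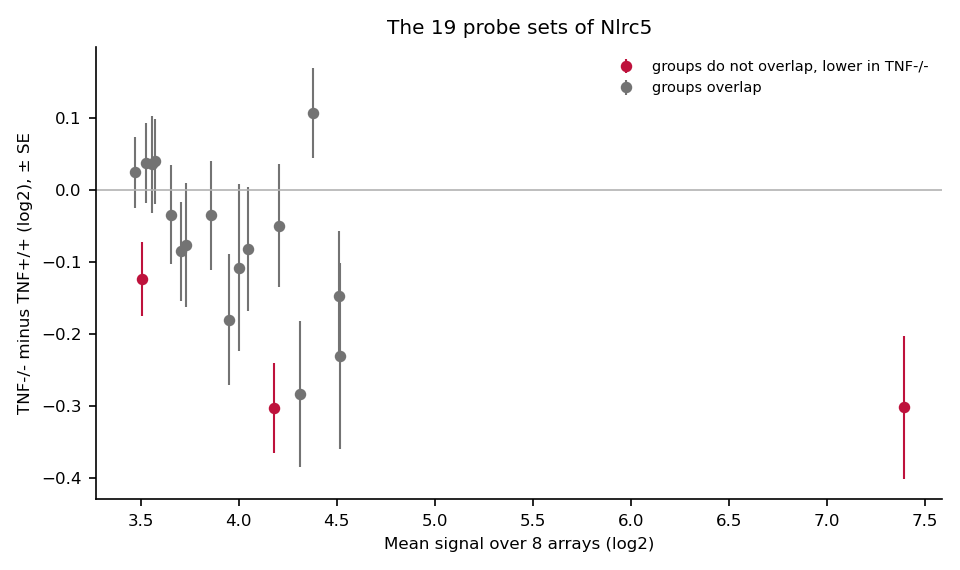
Difference between arrays labelled TNF-/- and TNF+/+ (log2, ± SE from limma, n = 4 each) against mean signal over the 8 arrays (log2) for the 19 probe sets of Nlrc5. Red marks the 3 probe sets whose groups do not overlap; differences run from -0.30 to 0.11, and the probe set used in the other plots is the isolated one at 7.39.

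Class II genes, which Ciita controls, gave 0 of 9 at an unadjusted p under 0.05, with 7 lower, 2 higher and a median of -0.05, which was -0.0049 after quantile normalization. The chains of the I-A protein, the class II protein of C57BL/6 mice, gave unlike values. H2-Ab1, its beta chain, had signals of 4.21, 4.26, 4.43 and 4.16 in the TNF-/- arrays against 4.45, 4.23, 4.50 and 4.69. TNF+/+ array 2 lay inside the range of the other group, and the difference was -0.20 ± 0.10 (SE) (limma, adjusted p = 0.512); it was -0.13 without TNF+/+ array 4 and -0.07 without TNF+/+ arrays 3 and 4. H2-Aa, its alpha chain, had signals of 4.46, 4.60, 4.69 and 4.53 against 4.55, 4.42, 4.69 and 4.59, and the groups overlapped almost fully. Its difference was 0.00 ± 0.08 (SE), with a 95% interval of -0.17 to 0.18. Cd74, the invariant chain that escorts class II proteins to the endosome, had signals of 4.15, 4.22, 4.10 and 3.97 against 4.11, 4.07, 4.12 and 4.23. Its difference was -0.03 ± 0.07 (SE), with an interval of -0.18 to 0.13, and its sign turned to 0.01 after quantile normalization. The mean signal of Cd74 was dim, at percentile 29.9 of all probe sets.

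The genes of the second class II protein, I-E, included the lowest p of the class. H2-Eb1, the beta chain, had signals of 4.27, 4.51, 4.23 and 4.31 under TNF-/- and 4.54, 4.42, 4.70 and 4.44 under TNF+/+. TNF-/- array 2 overlapped the other group, and the difference was -0.19 ± 0.09 (SE) (limma, adjusted p = 0.477; exact two-sided permutation p = 0.0857 unadjusted). H2-Ea, the alpha chain, which C57BL/6 mice do not express because its promoter is deleted, read 3.79 to 3.88 under TNF-/- and 3.77 to 4.03 under TNF+/+, a difference of -0.09 ± 0.07 (SE). H2-Eb2, a relative of H2-Eb1, differed by -0.05 ± 0.08. The genes that edit class II peptides lay close to 0 or were dim. H2-DMa, a chain of the DM exchange factor, differed by -0.03 ± 0.07. H2-Oa and H2-Ob, the chains of the DO inhibitor of DM, differed by -0.13 ± 0.06 and 0.02 ± 0.09; H2-Ob read 4.36, 4.18, 3.93 and 4.18 against 4.06, 4.06, 4.24 and 4.19. All 6 of these values missed the adjusted threshold (limma, adjusted p = 0.477 to 0.94).

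**Figure D3:**
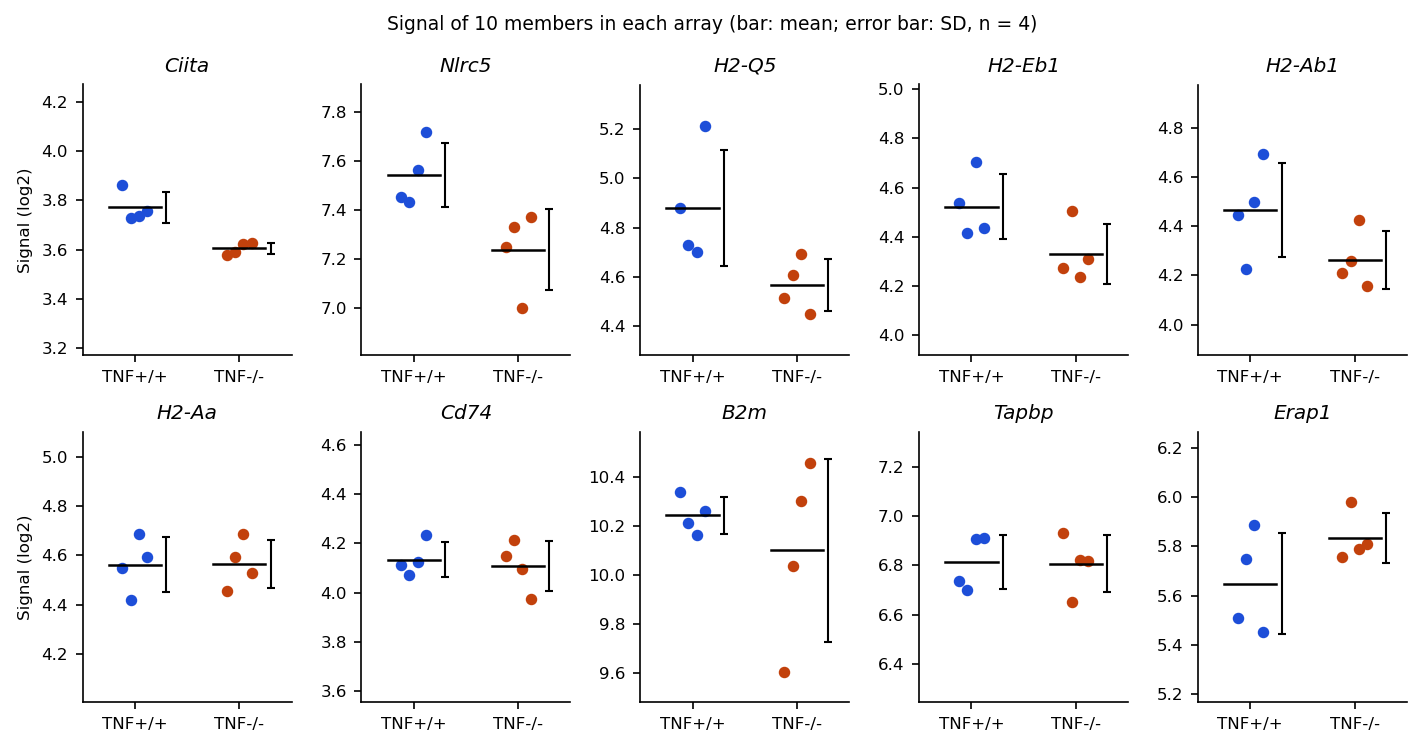
Log2 signal of 10 genes in each array (blue, labelled TNF+/+; orange, labelled TNF-/-; horizontal bar, mean; error bar, SD, n = 4), each panel with an axis of the same length. Ciita, Nlrc5 and H2-Q5 do not overlap between the groups; the other 7 do, and B2m spreads from 9.61 to 10.46 in the arrays labelled TNF-/-.

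Peptide loading genes gave 0 of 6 at an unadjusted p under 0.05, with 3 lower, 3 higher and a median of 0.01, which was -0.01 after quantile normalization and 0.10 without TNF+/+ arrays 3 and 4. B2m, the light chain of all class I proteins, had signals of 9.61, 10.04, 10.30 and 10.46 under TNF-/- and 10.34, 10.21, 10.16 and 10.26 under TNF+/+. The arrays labelled TNF-/- lay on both sides of the others, with an SD of 0.37 against 0.08, and the difference was -0.14 ± 0.16 (SE), with a 95% interval of -0.52 to 0.23 (limma, adjusted p = 0.774). Without TNF-/- array 1, the lowest, it was 0.02. Erap1, which trims peptides in the endoplasmic reticulum, was highest of the 6 in its difference. Its signals were 5.76, 5.98, 5.79 and 5.81 under TNF-/- and 5.51, 5.75, 5.89 and 5.45 under TNF+/+, a difference of 0.19 ± 0.11 (SE) (limma, adjusted p = 0.557), with TNF+/+ array 3 inside the other group.

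The peptide transporter and its partners did not separate the groups. Tap1, 1 chain of the transporter, had signals of 4.01, 3.92, 3.87 and 3.87 under TNF-/- and 3.84, 4.09, 3.92 and 4.17 under TNF+/+, a difference of -0.09 ± 0.08 (SE). Its mean signal was dim, at percentile 23.5 of all probe sets. Tap2, the partner chain, had signals of 4.47, 4.64, 4.55 and 4.52 against 4.29, 4.58, 4.58 and 4.54, a difference of 0.04 ± 0.08. Tapbp, or tapasin, which bridges the transporter and class I, had signals of 6.93, 6.65, 6.82 and 6.82 against 6.74, 6.70, 6.91 and 6.91. Its difference was -0.01 ± 0.08 with an interval of -0.19 to 0.18, and 0.09 without TNF+/+ arrays 3 and 4. Tapbpl, a tapasin relative that also edits peptides, differed by 0.02 ± 0.13, with TNF+/+ arrays between 4.56 and 5.21. All 4 overlapped between the groups (limma, adjusted p = 0.709 to 0.98).

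Non-classical class I genes, which carry heavy chains with narrower roles, gave 1 of 19 lower and 0 higher at an unadjusted p under 0.05; 13 of the 19 were lower, with a median of -0.02, which turned to 0.01 after quantile normalization. H2-Q5 is a Q-region gene close to Tnf in gene order. It had signals of 4.51, 4.61, 4.69 and 4.45 under TNF-/- and 4.88, 4.73, 4.70 and 5.21 under TNF+/+. The groups did not overlap, but the gap between TNF-/- array 3 (4.69) and TNF+/+ array 3 (4.70) was small. The difference was -0.32 ± 0.12 (SE) (limma, adjusted p = 0.402; exact two-sided permutation p = 0.0286 unadjusted) and -0.20 without TNF+/+ array 4, its highest. The other Q genes differed less: H2-Q2 by -0.13 ± 0.08, H2-Q4 by 0.05 ± 0.07 and H2-Q10, which in liver yields a secreted class I protein, by -0.01 ± 0.05.

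Among the T-region genes the directions were mixed. H2-T10, whose protein is a ligand of gamma-delta T cells, had signals of 4.33, 4.12, 3.87 and 4.00 under TNF-/- and 4.13, 4.29, 4.34 and 4.29 under TNF+/+, a difference of -0.18 ± 0.10 (SE). H2-Bl had signals of 4.05, 4.38, 4.38 and 4.17 against 3.88, 4.04, 4.26 and 4.09, a difference of 0.18 ± 0.10, and H2-T24 read 4.81, 4.78, 4.77 and 4.85 against 4.66, 4.67, 4.68 and 4.8001, a difference of 0.10 ± 0.05. Groups overlapped for all 3 (limma, adjusted p = 0.537 to 0.568). H2-Ke6, which lies in the complex but encodes a steroid dehydrogenase, read 6.11, 5.95, 5.97 and 5.69 against 5.82, 6.09, 6.01 and 6.38, a difference of -0.15 ± 0.13. H2-K2 read 3.83, 3.87, 3.86 and 3.72 against 4.11, 3.90, 3.81 and 3.87, a difference of -0.10 ± 0.08, and neither separated the groups.

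The M-region genes include a family known from sensory neurons of the vomeronasal organ, H2-M1, H2-M9, H2-M11 and H2-M10.1 to H2-M10.6. All 9 were measured, and their signals lay between 3.34 and 4.42 over the 8 arrays, with 7 of the 9 at or below the 25th percentile. Of the 9, 7 were lower and 2 higher, with a median of -0.03, and 79.2% of all genes at or below that percentile were lower. H2-M10.5 differed by -0.18 ± 0.08 (SE), with 3.599, 3.53, 3.57 and 3.49 under TNF-/- and 3.67, 3.57, 3.96 and 3.73 under TNF+/+ (limma, adjusted p = 0.483). The other 8 differed by -0.06 to 0.05. H2-M3, which presents peptides that start with N-formylmethionine, differed by -0.06 ± 0.07, H2-M2 by -0.01 ± 0.06 and H2-M5 by 0.06 ± 0.07.

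A further 8 probe sets pair with several symbols of which at least 1 starts with H2-, so they name no gene. Of these 7 were lower and 1 higher under the label TNF-/-, by -0.60 to 0.03, and limma called 0; 2 were lower and 0 higher at an unadjusted p under 0.05, and 3 did not overlap, all lower. The shares over all genes were 4.28% lower and 7.37% higher at that level, and 3.5% not overlapping and lower. The 2 pair with symbols of the H2-T series only. One had signals of 4.71, 4.97, 4.91 and 4.59 under TNF-/- and 5.23, 5.80, 5.18 and 5.36 under TNF+/+, a clear gap between the groups. Its difference of -0.60 ± 0.15 (SE), or 0.66-fold, was past that of any of the 38 genes (limma, adjusted p = 0.249). The other differed by -0.30 ± 0.09 (limma, adjusted p = 0.331). The 2 brightest of the 8 read 7.08 to 7.34 and 6.83 to 7.26 over the arrays. They differed by -0.07 ± 0.07 and -0.06 ± 0.10 (SE) (limma, adjusted p = 0.729 and 0.853).

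Of the 38 genes 32 lie on chromosome 17, from 83 measured genes before to 80 after Tnf, counted along the RefSeq order of GRCm38.p6. The class II genes lie 56 to 68 genes before Tnf, the Q genes 5 to 8 after it, and the T and M genes 33 to 80 after it. Of the 32, 23 were lower and 9 higher, with a median of -0.04; the 131 other measured genes in the same stretch, Tnf left out, had 95 lower and 36 higher and a median of -0.03. After quantile normalization the 32 had 18 lower and a median of -0.01. Among the 32, 1 was lower and 0 higher at an unadjusted p under 0.05, and among the 131, 14 and 1. Of the 50 measured genes closest to Tnf, 25 on each side, 41 were lower (82.0%). That share was 59.5% over the 935 other measured genes of chromosome 17 and 52.2% over all genes. Of the 50, 15 were at or below the 25th percentile of signal, where 79.2% of all genes were lower. Their count after quantile normalization was not taken. At an unadjusted p under 0.05, 7 of the 50 were lower and 0 higher, beside 4.28% and 7.37% of all genes. A link to position was not tested. Neighbours could differ in sign, as H2-Q4 and H2-Q5 at 0.05 ± 0.07 and -0.32 ± 0.12 (SE). H2-Bl and H2-T10, also neighbours, stood at 0.18 ± 0.10 and -0.18 ± 0.10. The 6 genes elsewhere, Ciita, Nlrc5, B2m, Cd74, Tapbpl and Erap1, had 4 lower and 2 higher.

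**Figure D4:**
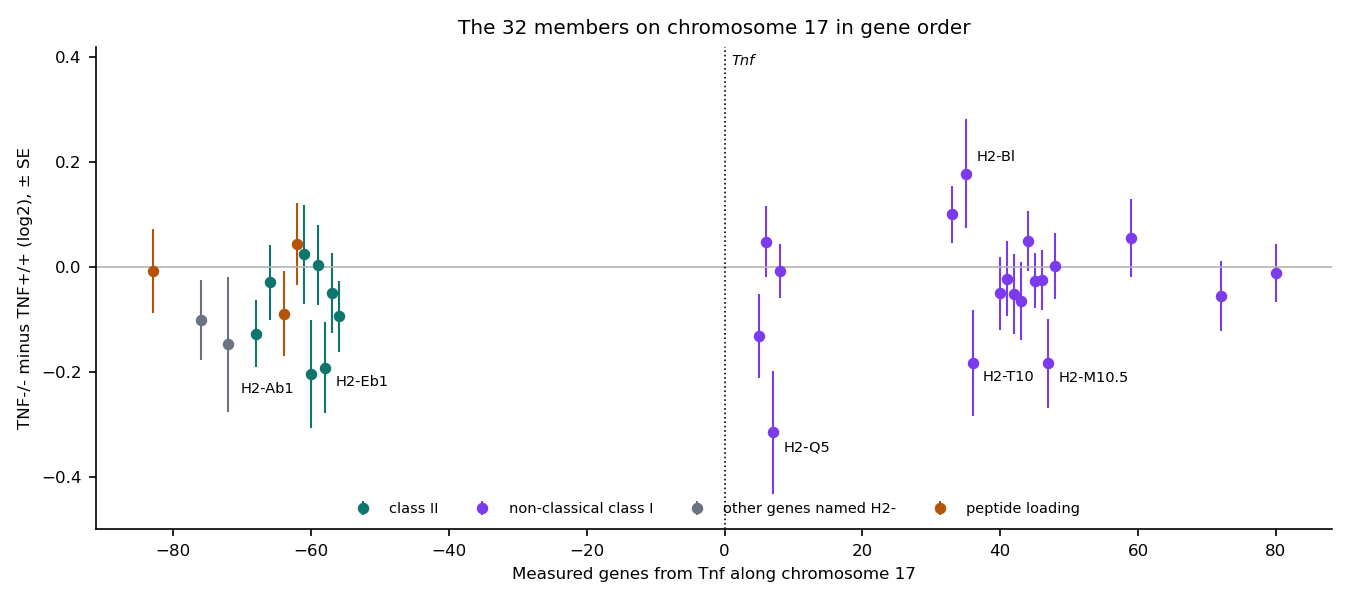
Difference between arrays labelled TNF-/- and TNF+/+ (log2, ± SE from limma, n = 4 each) of the 32 genes on chromosome 17, plotted by the number of measured genes from Tnf (dotted line) and coloured by role. Values run from -0.32 for H2-Q5 to 0.18 for H2-Bl, and H2-Q4, next to H2-Q5, stands at 0.05 ± 0.07.

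Other genes of antigen presentation were set beside them in 4 lists, with 33 of 37 listed genes measured. Limma called 0 of the 33 after adjustment; at an unadjusted p under 0.05, 1 was lower and 5 were higher. Over all genes 4.28% were lower and 7.37% higher at that level, and 9.88% were higher among genes above the 25th percentile of signal, where 30 of the 33 lie. Among class I processing enzymes and chaperones 1 of 9 was lower and 0 higher. This was Psmb9, an immunoproteasome subunit, with 4.20, 4.15, 4.25 and 4.14 under TNF-/- and 4.53, 4.30, 4.44 and 4.42 under TNF+/+, a difference of -0.24 ± 0.06 (SE) (limma, adjusted p = 0.283). Canx, the chaperone calnexin, differed by 0.09 ± 0.05. In the class II processing list 2 of 7 were higher and 0 lower, with a median of 0.14. Sppl2a, a protease that clears the last fragment of Cd74, had signals of 8.88, 9.04, 9.03 and 8.99 against 8.87, 8.81, 8.75 and 8.76 without overlap, a difference of 0.19 ± 0.06 (limma, adjusted p = 0.348). Marchf1, a ligase that takes class II proteins off the cell surface, differed by 0.31 ± 0.13 (limma, adjusted p = 0.444).

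Regulators of MHC genes, all 12 of them above the 25th percentile, gave 2 higher and 0 lower at an unadjusted p under 0.05 beside the 9.88% higher among all such genes, with a median of 0.07, which was 0.03 after quantile normalization. Creb1, whose protein binds the X2 box, had signals of 8.51, 8.497, 8.66 and 8.47 under TNF-/- and 8.42, 8.31, 8.31 and 8.23 under TNF+/+, without overlap. Its difference was 0.22 ± 0.07 (SE), and that of Nfya, a subunit of the Y-box factor NF-Y, was 0.24 ± 0.08 (limma, adjusted p = 0.335 and 0.358). Among class I-like genes outside H2 1 of 5 was higher and 0 lower. Mr1, which presents vitamin B metabolites to MAIT cells, had signals of 5.78, 5.75, 6.31 and 6.04 against 5.07, 5.32, 5.65 and 5.41, so the groups did not overlap. Its difference was 0.61 ± 0.16 (SE), or 1.52-fold (limma, adjusted p = 0.264; exact two-sided permutation p = 0.0286 unadjusted). Azgp1, a secreted class I-like protein gene, differed by -0.08 ± 0.05.

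Markers of cells that carry MHC proteins were read in the same arrays. In bulk tissue fewer cells of a type and less RNA per cell cannot be told apart. The neuronal marker Snap25 was high in every array, with means of 11.89 (TNF-/-) and 11.84 (TNF+/+), as the tissue label requires. It does not show whether the whole brain was taken. Summed linear signal of 6 of 7 listed microglial markers was 512 to 593 in the first group and 545 to 609 in the second, that of 6 of 6 markers of border macrophages 98.6 to 104 and 101 to 108, and that of 6 of 6 dendritic cell markers 154 to 170 and 139 to 171, so all 3 overlapped. In each of the last 2 lists 3 of 6 markers were at or below the 25th percentile of signal. Flt3, with a mean of 6.39, weighed most in the dendritic sum. These 2 sums therefore say little about cell content. The sum of 7 of 8 lymphocyte markers was 96.9 to 98.8 and 99.9 to 104, without overlap, with 6 of the 7 at or below the 25th percentile of signal, where 16 of the 38 MHC and loading genes also lie. Of these 16 dim genes 13 were lower (81.2%), with a median of -0.05, close to all genes as dim, of which 79.2% were lower with a median of -0.05. Of the 22 brighter ones 14 were lower (63.6%), with a median of -0.03, while 42.7% of all genes as bright were lower, with a median of 0.02; after quantile normalization the counts were 9 of 16 and 12 of 22. Of the other lists, the sums of neurons, astrocytes, endothelium and choroid plexus overlapped, with 13395 to 14421 under TNF-/- and 13177 to 13660 under TNF+/+ for neurons, 3144 to 3685 and 3113 to 3352 for astrocytes, 895 to 1055 and 984 to 1123 for endothelium, and 3675 to 4269 and 3302 to 4069 for choroid plexus. Sums for oligodendrocytes and meningeal fibroblasts did not overlap: 4 of 5 oligodendrocyte markers summed to 4002 to 4244 under TNF-/- and 4559 to 5526 under TNF+/+, and 6 of 6 markers of meningeal fibroblasts to 787 to 865 and 630 to 750. The sum of 4 of 4 markers of cerebellar granule cells was 988 in TNF+/+ array 1 and 348 to 429 in the other 7 arrays. Of these markers, Gabra6 read 8.21 in TNF+/+ array 1 and 4.01 to 4.42 in the other 7, and Cbln3 7.07 and 3.93 to 4.41. Zic1, at 7.92 to 8.57 over all arrays, weighed most in the sum. Whether the samples held the same parts of the brain was not tested. A linear sum weighs the brightest markers most, so an overlapping sum can hide single markers. All 5 choroid plexus markers were higher, with a median of 0.19, and 1 was so at an unadjusted p under 0.05. Of 6 neuronal markers, Gad1 and Gad2 were higher and Slc17a7 lower at that level. Of 5 astrocyte markers 1 was lower, and of 7 endothelial and 6 dendritic cell markers 0 passed. In the microglia, border macrophage and lymphocyte lists 1 marker each was lower at that unadjusted level and 0 were higher. These were Aif1, Ms4a7 and Cd8a, by -0.14 ± 0.06, -0.20 ± 0.09 and -0.16 ± 0.07 (SE). Of 4 oligodendrocyte markers 2 were lower, and of 6 markers of meningeal fibroblasts 3 were higher. Over all genes 4.28% were lower and 7.37% higher. Limma called 0 markers in every list named here after adjustment. The part of these markers and of the low percentile in the differences was not tested. TNF+/+ arrays 3 and 4 stood apart on the first principal component, at 22.05 and 37.22 against -4.29 or lower. Without them 23 of the 38 genes (60.5%) were lower, beside 47.3% of all genes. Limma then called 0 of all probe sets, so its 0 among the 38 is no result about these genes.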

How the data were processed

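The deposited table holds the authors' log2 signal of 35556 probe sets on 8 arrays; GCOS, GCRMA and Partek are listed in the submitters' processing notes, with no version or role, and no source used here gives a genome build. The log2 scale follows from the values (2.83 to 14.1). Groups and replicate numbers came from the titles, and the values were used as deposited. In the platform annotation 21789 probe sets pair with 1 symbol, 1621 with several, and 12146 have no entry there. RefSeq's GRCm38.p6 table held all 38 genes by gene ID and served for names, chromosomes and gene order. All probe sets were fitted with limma 3.58.1 in R 4.3.3 (genotype term, eBayes, two-sided, p adjusted by Benjamini-Hochberg across every probe set); SE and 95% intervals are moderated. SAM used all 70 assignments and gave 53 calls with a false discovery rate estimated as 4.49%. The genes, role groups and lists were chosen with earlier results of these data known. Every one of the 38 is accounted for. Values per array are given for genes named by a written rule. It covers an unadjusted p under 0.05, no overlap, and 10 core genes with a probe set of their own. It also covers the 2 highest and 2 lowest differences per role group, and from each list the 2 genes with the smallest p. Some genes of these last 2 kinds are given with the difference only. The probe sets with several symbols that are given singly and the dimmer Nlrc5 probe set were picked after their values were seen. The limma step was tested on simulated data with changes larger than any of the 38 differences. That test therefore does not tell how often differences of the size seen here would be called. Python 3.11.15 and matplotlib 3.10.9 made the plots.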

Additional observations from a re-analysis of the deposited data

Results flagged for a closer look

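In groups of 4 arrays, 1 array stood apart from the other 3 in 6 of 86 groups tested, where about 4.3 would be flagged by chance (about 1 in 20 groups). The TNF+/+ cases were H2-DMa in array 3 (4.67, next 4.54), H2-Eb2 in array 3 (3.86, next 4.00), H2-M10.3 in array 2 (3.67, next 3.46), H2-T24 in array 4 (4.8001, next 4.68) and Tap2 in array 1 (4.29, next 4.54). In arrays labelled TNF-/- it was the mean of the class II genes in array 2 (4.19, next 4.12).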

How the results depend on the processing

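Limma called 0 of the 38 genes under every alternative run, and SAM called 0. Limma's calls over everything tested ran from 0 to 63 in these alternatives, so 0 of 38 says little about these genes. The lowest adjusted p was 0.21 (limma), for Nlrc5 in the fit limited to single-symbol probe sets. In 20 of the 38 the sign held under all alternatives, among them Ciita, Nlrc5, H2-Q5, H2-Ab1 and H2-Eb1. Some alternatives leave a difference as it is and cannot turn its sign. These are the intensity trend, the replicate block and the fits limited to single-symbol or brighter probe sets. For genes with 1 probe set, so does the mean of all probe sets. Quantile normalization moved the median of the 38 to -0.0072 and that of non-classical class I to 0.011, and turned Cd74 to 0.014, H2-M1 to 0.011, H2-M10.1 to 0.017, H2-M2 to 0.035, H2-M9 to 0.0060 and H2-Q10 to 0.037. Median centring turned H2-Aa to -0.015 and H2-M10.6 to -0.017. The mean of all probe sets moved the transactivators to -0.13. An intensity trend gave 5 lower at an unadjusted p under 0.05. Without TNF+/+ arrays 3 and 4, 1 gene was higher at that level and 7 did not overlap, as fewer arrays allow; the peptide loading median was 0.096, and Cd74 was at 0.019, H2-DMa at 0.0049, H2-Ea at 0.0012, H2-M5 at -0.0081, H2-M9 at 0.018 and Tapbp at 0.087. With 1 array left out, 2 to 6 genes were lower and 0 to 2 higher at that level (6 without TNF+/+ array 2, 5 without TNF+/+ array 1), and 3 to 5 did not overlap. Shares over all genes are not given for such counts under the alternatives. The counts therefore cannot be read as a result about the 38.

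Ranges with 1 array left out that crossed 0 were -0.26 to 0.023 for B2m, -0.061 to 0.019 for Cd74, -0.044 to 0.045 for H2-Aa, -0.071 to 0.011 for H2-DMa, -0.093 to 0.011 for H2-Eb2, -0.056 to 0.0013 for H2-M1, -0.057 to 0.041 for H2-M10.1, -0.092 to 0.0029 for H2-M10.3, -0.026 to 0.038 for H2-M10.6, -0.035 to 0.012 for H2-M2, -0.042 to 0.10 for H2-Ob, -0.025 to 0.022 for H2-Q10, -0.025 to 0.071 for Tap2, -0.050 to 0.044 for Tapbp and -0.070 to 0.15 for Tapbpl. The cause was not tested.

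With the replicate number as a block, 2 genes were lower and 1 higher at an unadjusted p under 0.05, and limma called 0 of the 38 and 0 of all probe sets. Same-numbered arrays shared deviations only weakly (correlations 0.067 to 0.11), 6 of 8 arrays correlated best with their own number, and nothing in the labels ties the numbers to a litter or day. Signal close to the floor limits what 16 of the 38 genes can show.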
